A study of Drosophila melanogaster with 2 samples.

Results

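The X chromosome promoter candidates are the binding regions of the transcription factor cropped (crp) that lie at promoters of the Drosophila melanogaster X chromosome. A region was a member when it stood in the candidate list made from the pooled replicates, lay on the X, and its summit was at most 1000 bp away from an annotated start of a protein-coding transcript. This rule found 1040 members among 26505 pooled candidates, and the same rule found 6987 promoter candidates on the autosomal arms 2L, 2R, 3L, 3R and 4. The rule used position alone, so signal, promoter layout, sequence and presence in the thresholded list are measures it did not use.

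The data come from chromatin immunoprecipitation with sequencing (ChIP-seq) of whole embryos, aged 0 to 16 hours and of both sexes pooled. The embryos came from a single transgenic line that stably expresses crp with green fluorescent protein (GFP) at its C terminus, and an antibody against GFP was used for the precipitation. Chromatin was sonicated to fragments of 200 to 800 bp, and the only group holds 2 biological replicates, numbered 1 and 3. A control experiment that the labels name was not analysed here, so signal could not be set against it. The promoter that drives the tagged protein and the tissues that express it are not given in the labels.

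Cropped is the fly relative of vertebrate AP-4, a factor with a helix-loop-helix domain and a leucine zipper whose known site is the E-box CAGCTG. Drosophila males carry a single X and females carry a pair. In males the MSL complex, which contains the histone acetyltransferase Mof, coats the X and raises its transcription towards the female level. Many fly promoters are divergent, with neighbouring genes transcribed away from a shared stretch of DNA.

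The sequences of some of the strongest X members are shown first because they hold, or lack, the E-box by which members are grouped below. Of the 12 strongest, 5 had CAGCTG within 50 bp of the summit, and all 5 are shown. Of the 7 without it only CG1354 is shown. The sequences come from the RefSeq copy of the Release 6 genome (dm6), are written 5′ to 3′, and have CAGCTG in capitals. CG1354 is the strongest member and has no CAGCTG within 50 bp of its summit, a stretch given on the plus strand (chrX:9778619-9778719).
CG1354: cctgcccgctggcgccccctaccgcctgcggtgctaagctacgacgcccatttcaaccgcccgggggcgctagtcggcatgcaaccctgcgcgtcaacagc
The next is the whole stretch between the divergent starts of c12.1 and c12.2, 135 bp on the plus strand (chrX:9319224-9319358), with 1 CAGCTG.
c12.1/c12.2: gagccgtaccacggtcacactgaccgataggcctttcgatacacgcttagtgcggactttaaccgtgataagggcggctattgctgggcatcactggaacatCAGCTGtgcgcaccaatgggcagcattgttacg
For Snx27 the 61 bp centred on the summit are given on the minus strand, on which the gene is transcribed (chrX:5738041-5738101).
Snx27: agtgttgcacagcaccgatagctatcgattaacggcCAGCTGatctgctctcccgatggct
The ND-B18 window held 2 copies, each given here in 30 bp of the plus strand (chrX:15063823-15063852 and chrX:15063881-15063910).
ND-B18 left: attgcaatacacCAGCTGttcgagcagtgc
ND-B18 right: caacgctgtcagCAGCTGtcacttgcaaca
For bcn92 the bases within 50 bp of the summit are on the minus strand (chrX:2149672-2149772).
bcn92: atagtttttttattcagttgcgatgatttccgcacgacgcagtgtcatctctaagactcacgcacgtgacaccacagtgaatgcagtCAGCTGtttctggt
The last is the 121 bp stretch between the divergent starts of CG10353 and SelG on the plus strand (chrX:11887163-11887283). It has 2 copies of CAGCTG.
CG10353/SelG: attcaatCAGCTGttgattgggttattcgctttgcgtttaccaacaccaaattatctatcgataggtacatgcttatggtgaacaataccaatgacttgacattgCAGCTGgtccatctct

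The authors gave each region a signal value, a measure of enrichment made by their peak caller, and a thresholded list of 1122 peaks made by the irreproducible discovery rate (IDR) procedure, which keeps peaks that rank alike in replicates. All 1122 were rows of the pooled list, and they were also its strongest: the lowest signal inside was 61.3 and the highest outside was 61.1. Presence in the IDR list and a signal above that level were therefore the same measure, and both are used below as descriptions of the upper end of the signal. Members in the IDR list are called IDR members.

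The 12 strongest X members all belonged to the IDR list, and their signals ran from 286.0 down to 157.2. CG1354 had a signal of 286.0 in the pooled list, 178.5 in replicate 1 and 106.6 in replicate 3, with its summit 73 bp upstream of the start. The divergent pair c12.1 and c12.2 had 250.4 in the pooled list, 143.8 in replicate 1 and 106.2 in replicate 3. Snx27, a sorting nexin of the endosome, had 238.8 in the pooled list, 122.9 in replicate 1 and 112.7 in replicate 3. At each of these 3 the value in replicate 1 was higher than that in replicate 3.

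ND-B18, a subunit of respiratory complex I that is divergent with the ubiquitin ligase gene hiw, had 238.0 in the pooled list, 138.7 in replicate 1 and 98.0 in replicate 3. The gene tko, which encodes a protein of the mitochondrial ribosome, had 208.2, 111.7 and 98.6 in the same order of lists. CG12118 had 205.4 in the pooled list, 94.9 in replicate 1 and 110.7 in replicate 3. Replicate 3 was the higher of the replicates at CG12118 and at Dbct, and replicate 1 at the other 10 of the 12 strongest.

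Dbct, divergent with CG15027, had 192.4 in the pooled list, 94.7 in replicate 1 and 106.9 in replicate 3. CG2004, divergent with CG1785, had 182.4, 123.3 and 60.7, the largest ratio between replicates among the 12. The Polycomb group gene ph-p had 179.0, 92.2 and 89.0, with the summit 514 bp upstream of its nearest start and inside an annotated intron. It was the only one of the 12 with an intronic summit.

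The gene bcn92 had 170.9 in the pooled list, 99.9 in replicate 1 and 74.0 in replicate 3. CG10353, divergent with the selenoprotein gene SelG, had 165.6, 97.8 and 65.8. Naxe, an enzyme that repairs damaged NADH and NADPH, had 157.2, 83.6 and 76.0. Of the 12, 6 were divergent, 5 had CAGCTG within 50 bp of the summit, 10 had their summit within 100 bp of a start, 9 lay between genes and 2 in a 5′ UTR.

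**Figure D1:**
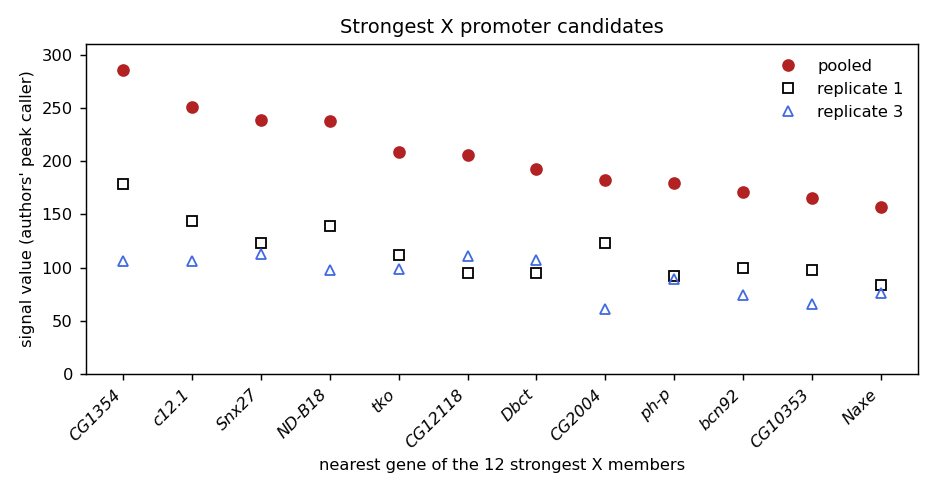
Signal value (vertical axis, the authors' unit) of the 12 strongest X promoter candidates, in order of pooled signal, in the pooled list (filled circles), replicate 1 (squares) and replicate 3 (triangles). Pooled values run from 286.0 at CG1354 down to 157.2 at Naxe, and replicate 3 exceeds replicate 1 only at CG12118 and Dbct among these 12.

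Even the strongest X member was below the leading autosomal ones. Of the 6987 autosomal promoter candidates 32 had a signal above that of CG1354, 65 exceeded c12.1, and 77 exceeded ND-B18. The X set of 1040 is smaller, and a larger set tends to have the higher maximum, so shares above fixed signals are given below. The highest promoter signal was 286.0 on the X and 770.4 on the autosomes. Single arms reached 770.4 on 2L, 512.4 on 2R, 317.8 on 3L and 586.0 on 3R, and the small arm 4 reached 79.9, below the X.

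X members entered the IDR list less often than autosomal promoter candidates, by an amount that depended on the promoter window. On the X 115 of 1040 members were IDR members, a share of 11.1% (Wilson 95% interval 9.29 to 13.1%). On the autosomes the share was 938 of 6987, or 13.4% (12.6 to 14.2%), and it was 13.1% over promoter candidates of all arms. The difference, X minus autosomes, was -2.37 percentage points (Newcombe 95% interval -4.31 to -0.173). It was -4.40 points with a window of 500 bp and -5.18 points with 250 bp. Split by distance, it was -5.64 points (-10.1 to -0.786) for summits within 200 bp of a start, where 25.4% of X and 31.0% of autosomal ones were IDR members. Beyond 200 bp it was 0.237 points (-0.823 to 1.79), with 16 of 650 on the X (2.46%) and 2.22% on the autosomes. Some rows overlapped, so the 1040 X members made 948 merged regions and the 115 IDR members 107. When overlapping candidates were merged, at promoters or not, and the strongest kept, the difference was -2.68 points (-4.75 to -0.344). These intervals cover counting error only, and regions along a genome in 1 pooled list are not independent replicates, so no p-value is given.

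The arms differed among themselves by a similar amount. The IDR share was 13.9% on 2L, 14.6% on 2R, 11.9% on 3L and 13.9% on 3R. The X was below each of these 4 large arms, but its interval against 3L ran from -3.27 to 1.65 points around a difference of -0.864. The small arm 4 had 2 of 104, or 1.92%.

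Separate replicate lists had a lower X share too. With the 1122 strongest rows of a replicate's own list in place of the IDR list, the difference was -1.65 points in replicate 1 (-3.60 to 0.541) and -2.85 points in replicate 3 (-4.46 to -1.01). The interval in replicate 1 includes 0, as did the pooled one when only the 5′-most start of each gene was used (-1.96 points, -4.36 to 0.741).

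The members on either side of the threshold had almost the same pooled signal. Just inside were CG3156 at 62.0 and Flad1 at 61.5, and just outside were rut, the adenylyl cyclase gene rutabaga, at 60.4, and the tyrosine phosphatase gene Ptpmeg2 at 59.9. In replicate 1 these 4 had 53.3, 25.4, 34.4 and 32.4, and in replicate 3 they had 24.3, 34.5, 31.8 and 27.0.

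The gap between the X and the autosomes was small over most of the range and wide at the top. The median signal of all members was 24.9 on the X (95% interval 24.3 to 25.6) and 25.7 on the autosomes (25.5 to 26.0), a ratio of 0.969. The 75th percentile was 33.7 on the X and 35.3 on the autosomes, a ratio of 0.954. At the 90th percentile the X had 63.5 and the autosomes 86.2, a ratio of 0.736. At the 95th percentile the X had 98.4 and the autosomes 143.2, a ratio of 0.687, and the 4 large arms stood at 143.4, 146.9, 132.9 and 146.4.

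Counts above fixed signals show the same pattern. A signal above 100 was reached by 46 X members (4.42%, 3.33 to 5.85%) and by 587 autosomal ones (8.40%, 7.77 to 9.07%), and the large arms lay between 7.83% and 8.94%. A signal above 150 was reached by 14 X members (1.35%) and 323 autosomal ones (4.62%). Above 200 there were 6 X members (0.577%) and 147 autosomal ones (2.10%). No X member of 1040 exceeded 300, which allows a share of up to 0.368% by the Wilson interval, against 30 autosomal candidates (0.429%), of which arm 3L held 1.

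**Figure D2:**
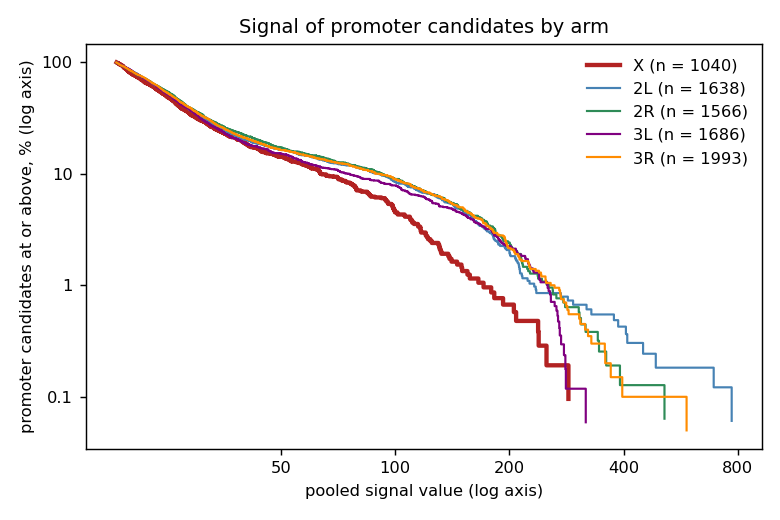
Percentage of promoter candidates at or above each pooled signal value, on log axes, for the X (thick red line) and the 4 large autosomal arms. The lines run together below a signal of about 50 and separate above it, with 4.42% of X members and 7.83% to 8.94% of those on the large autosomal arms above 100.

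Among IDR members the difference was seen in every list. Their median pooled signal was 95.3 on the X (95% interval 85.0 to 99.8) and 117.2 on the autosomes (112.3 to 123.7), a ratio of 0.813. The large arms had medians of 115.4, 116.1, 120.5 and 118.8, all above the X interval, while the 2 IDR members on arm 4 had a median of 73.1, below it. Of the 115 X members, 30 (26.1%, 18.9 to 34.8%) exceeded the autosomal median. Since entry to the list is set by signal, these medians describe members above a common floor.

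In replicate 1 the same regions had a median of 50.7 on the X (48.1 to 53.5) and 66.6 on the autosomes, a ratio of 0.761, with the large arms between 64.6 and 69.6. In replicate 3 they had 46.2 on the X (42.0 to 50.1) and 58.3 on the autosomes, a ratio of 0.793, with the large arms between 55.9 and 61.1. When each replicate's own 1122 strongest rows were used, the ratio was 0.779 in replicate 1 and 0.813 in replicate 3. The X median was thus below that of every large arm in each replicate, and the 2 members on arm 4 were lower still, with medians of 39.3 in replicate 1 and 32.6 in replicate 3.

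**Figure D3:**
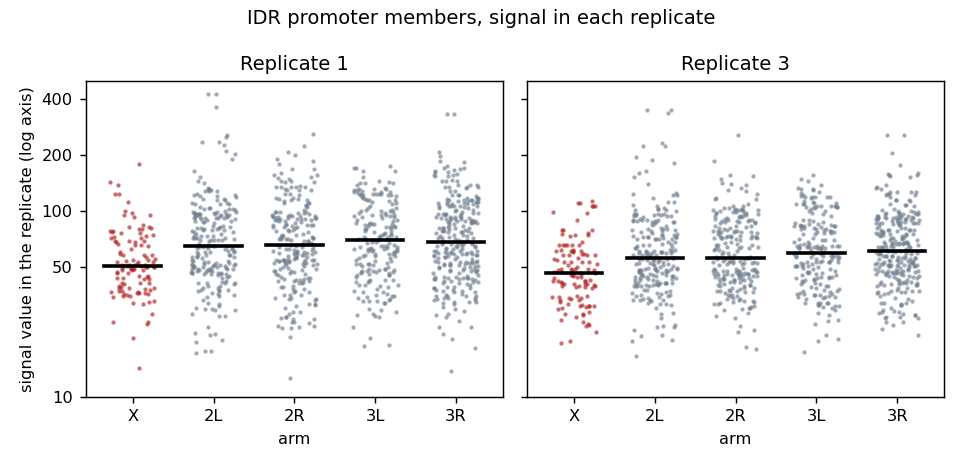
Signal in replicate 1 (left) and replicate 3 (right), on a log axis, at the promoter candidates of the IDR list, by chromosome arm, with the X in red, the 4 large autosomal arms in grey and the median as a black bar. The X medians of 50.7 and 46.2 lie below those of all 4 arms in their panels.

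Copy number of the X was not measured here. Embryos of both sexes were pooled and males carry a single X, so less signal from fewer X copies and less binding per copy cannot be told apart. Candidates farther than 1000 bp from a start were described beside the promoter candidates. Their median signal was 22.1 on the X and 23.0 on the autosomes, a ratio of 0.963, close to the 0.969 of promoter candidates. Their 95th percentile was 34.1 on the X and 36.6 on the autosomes, a ratio of 0.932. Promoter candidates reached a like level at their 75th percentile, 33.7 on the X and 35.3 on the autosomes, a ratio of 0.954. The promoter ratio of 0.687 at the 95th percentile belongs to higher signals, 98.4 and 143.2. Equal percentiles of far and promoter candidates thus stand at unlike signal levels. The part of copy number in these ratios was not tested. All lists were deposited with a floor, which was 18.4 for the pooled list, so low values are missing from each arm, and the medians, those of the far candidates above all, lie close to it.

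Nearly all IDR members, but fewer of the other members, overlapped a candidate in both replicates. All 115 X IDR members overlapped a candidate in both replicates, as did 933 of 938 (99.5%) autosomal ones. The IDR procedure keeps peaks that rank alike in replicates, and its list was here also the strongest rows of the pool of these replicates. This overlap therefore follows largely from how the members were chosen. Of all 1040 X members 61.8% had a candidate in replicate 1, 70.3% in replicate 3 and 39.4% in both, against 65.0%, 73.2% and 43.7% on the autosomes. Across the 115 X IDR members Pearson's r between the replicate signals was 0.720 and Spearman's rank coefficient 0.628. Across autosomal IDR members in both replicates they were 0.840 and 0.720. These are given as a description because some summits share a replicate row.

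Replicate 1 had the higher value at 76 of the 115 X IDR members and replicate 3 at 39. The median log2 ratio of replicate 3 to replicate 1 was -0.19 (SD 0.56) at autosomal IDR members and -0.18 (SD 0.51) at those of the X. The diacylglycerol lipase gene inaE leaned most to replicate 1, with 58.3 in replicate 1 and 20.0 in replicate 3, a log2 ratio of -1.55. Top1, which encodes DNA topoisomerase I, had 66.0 in replicate 1 and 29.8 in replicate 3, and CG15914 had 68.6 and 31.1. The glycolytic gene Gapdh2 leaned most to replicate 3, with 14.3 in replicate 1 and 46.8 in replicate 3, a log2 ratio of 1.71. CG3149 had 20.7 in replicate 1 and 42.3 in replicate 3, and a second summit at CG12118 had 62.4 and 110.7. The 110.7 is also the replicate 3 value of the stronger CG12118 summit, and the 68.6 of CG15914 is also the replicate 1 value of its neighbour UBL3. The ratios at CG15914 and at this CG12118 summit may therefore set values of different summits against each other.

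The share of divergent promoters did not differ between the X and the autosomes beyond counting error. On the X 249 members (23.9%, 21.4 to 26.6%) lay at a divergent pair of starts within 1000 bp, and the autosomal share was 24.0% (23.0 to 25.0%). The difference of -0.0451 points had an interval from -2.74 to 2.82, so shifts of a few points either way were within counting error. Among IDR members the divergent share was 63 of 115 (54.8%) on the X and 56.7% on the autosomes, with an interval of the difference from -11.6 to 7.42 points. The median gap between divergent starts at IDR members was 246 bp on the X and 247 bp on the autosomes.

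Summits lay at like distances from starts. The median distance of all members was 308 bp on the X and 303 bp on the autosomes, and that of IDR members was 63 bp on the X and 48 bp on the autosomes. Of X IDR members 90 (78.3%) were upstream of their nearest start, against 75.5% on the autosomes, and 99 (86.1%) were within 200 bp, against 89.9%. Of these 115 X summits 65 were between genes, 34 in a 5′ UTR, 14 in an intron, 1 in a coding exon and 1 in a 3′ UTR. Over all members, coding exons held 92 X summits (8.85%, 7.27 to 10.7%) and 15.6% of the autosomal ones (14.8 to 16.5%). The GC content within 50 bp of the summit averaged 39.1% on the X and 39.2% on the autosomes.

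**Figure D4:**
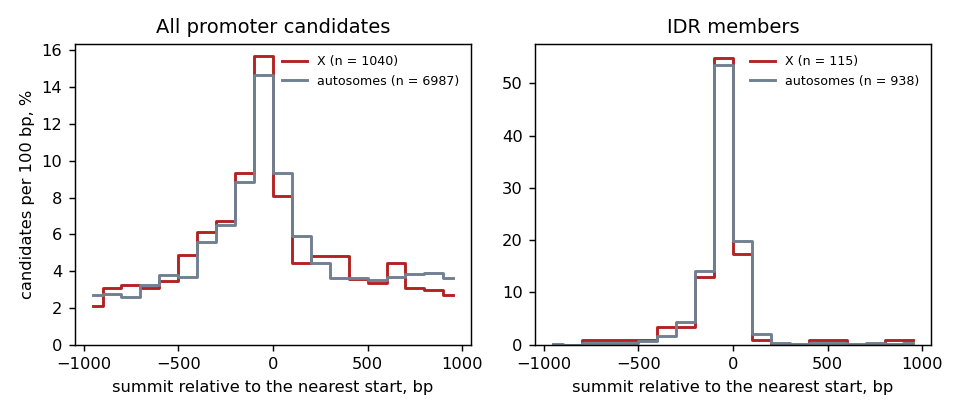
Position of the summit relative to the nearest protein-coding start (horizontal axis, bp, negative upstream), as a percentage of candidates per 100 bp, for all promoter candidates (left) and IDR members (right), with the X in red and the autosomes in grey. Both sets peak just upstream of the start, and IDR members are the more concentrated there, with 86.1% of X and 89.9% of autosomal ones within 200 bp.

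X members that held CAGCTG had lower signals than autosomal ones, while the share that held it did not differ beyond counting error. The whole hexamer, which reads the same on both strands, was within 50 bp of the summit of 136 X members (13.1%, 11.2 to 15.3%) and 12.5% of autosomal ones (11.7 to 13.3%). Windows from 300 to 350 bp on each side, counted jointly, held it at 5.19% of X members and 4.82% of autosomal ones. Among IDR members 53 of 115 (46.1%) had it on the X and 49.9% on the autosomes, with an interval of the difference from -13.2 to 5.83 points.

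Of the 136 X members with CAGCTG, 53 (39.0%, 31.2 to 47.4%) were IDR members, against 468 of 871 (53.7%, 50.4 to 57.0%) on the autosomes. The difference was -14.8 points (-23.2 to -5.74). Their median signal was 48.9 on the X (39.6 to 57.6) and 71.8 on the autosomes (62.4 to 79.3), a ratio of 0.681. The large arms were uneven here, with medians of 67.5, 85.7, 53.3 and 78.8 on 2L, 2R, 3L and 3R, and shares of 54.0%, 58.0%, 45.7% and 56.9%. Against 3L the difference in share was -6.71 points, with an interval from -17.2 to 4.09.

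Of the 904 X members without CAGCTG, 62 (6.86%, 5.39 to 8.70%) were IDR members, against 7.68% (7.04 to 8.38%) on the autosomes. The difference was -0.826 points (-2.45 to 1.12), and the median signal was 24.1 on the X and 24.8 on the autosomes. As differences, the intervals of the groups with and without CAGCTG did not overlap. As ratios of X to autosomal share they did, at 0.725 (0.583 to 0.903) with CAGCTG and 0.892 (0.691 to 1.152) without, and whether the hexamer changes the ratio was not tested.

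The replicate lists gave the same order. In replicate 1, 41.4% of X promoter candidates with CAGCTG and 52.0% of autosomal ones were among its 1122 strongest rows, a difference of -10.7 points (-19.3 to -1.57). In replicate 3 these shares were 33.3% and 52.3%, a difference of -19.0 points (-27.2 to -9.89). Without CAGCTG the differences were -0.549 points in replicate 1 (-2.18 to 1.39) and -1.22 points in replicate 3 (-2.56 to 0.398).

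Divergent X members with CAGCTG entered the IDR list most often, at 26 of 46 (56.5%, 42.2 to 69.8%), against 71.3% on the autosomes. One-strand X members with it did so at 27 of 90 (30.0%), against 42.8%. Divergent X members without it stood at 37 of 203 (18.2%), against 21.9%, and one-strand members without it at 25 of 701 (3.57%), against 3.69%. The 4 X groups thus ran in the same order as the 4 autosomal ones, and the c12.1/c12.2 and CG10353/SelG stretches printed above belong to the first of them.

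**Figure D5:**
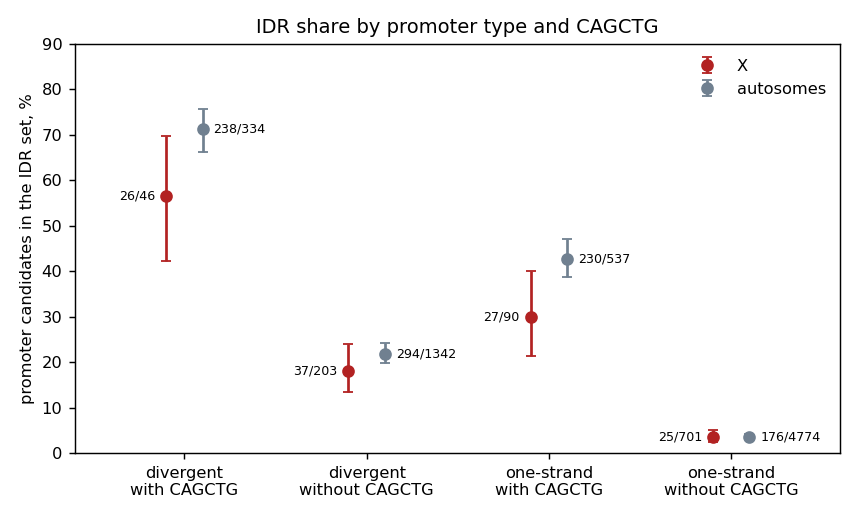
Percentage of promoter candidates in the IDR list (points, with Wilson 95% intervals and counts beside them), by promoter type and by CAGCTG within 50 bp of the summit, with the X in red and the autosomes in grey. The X point is at 56.5% and the autosomal point at 71.3% in divergent promoters with CAGCTG, and they are at 3.57% and 3.69% in one-strand promoters without it.

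Other short motifs were searched in the same window, and were chosen after the values were seen. GAGAGA on either strand, the core of the sites of GAGA factor, was in 56 X members (5.38%, 4.17 to 6.93%) and 3.43% of autosomal ones (3.03 to 3.89%), a difference of 1.95 points (0.653 to 3.54). Against 3L, where the share was 4.21%, the interval ran from -0.444 to 2.94 points. TATCGATA, the palindromic element bound by DREF, was in 28 X members (2.69%) and 1.83% of autosomal ones, with an interval of the difference from -0.0310 to 2.07 points.

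In IDR members TATCGATA was found on the X in 14 of 115 (12.2%, 7.39 to 19.4%) and on the autosomes in 6.82% (5.38 to 8.62%). That difference of 5.35 points had an interval from 0.243 to 12.7. Against single arms the interval excluded 0 for 2L (0.359 to 14.1) but not for 2R (-3.04 to 11.3), 3L (-0.143 to 13.9) or 3R (-0.243 to 13.3). The stretch between CG10353 and SelG holds this element between its copies of CAGCTG. The E-box CACGTG, which shares its outer bases with CAGCTG, was in 1.73% of X members and 1.27% of autosomal ones. A window could hold more than 1 of these motifs, and a match describes the window only.

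A smaller share of X genes than of autosomal genes had a candidate at all. Of 2196 protein-coding X genes 920 (41.9%, 39.8 to 44.0%) had a candidate summit within 1000 bp of a start, against 52.4% (51.5 to 53.3%) of 11749 autosomal genes. An IDR summit was near 170 X genes (7.74%, 6.70 to 8.93%) and 1380 autosomal genes (11.7%, 11.2 to 12.3%), and the share over all genes was 11.1%. Among genes with a candidate these were 18.5% on the X and 22.4% on the autosomes, beside 21.9% over all arms. Every large arm exceeded the X in the share with a candidate, from 50.3% on 2R to 54.8% on 3L, and in the share with an IDR summit, from 11.1% on 3L to 12.1% on 2R.

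The share of IDR members ran lower from the left to the right end of the X. In 4 equal stretches of the arm's length it was 33 of 234 (14.1%), 38 of 327 (11.6%), 32 of 315 (10.2%) and 12 of 164 (7.32%). The intervals of the first and last stretches, 10.2 to 19.1% and 4.23 to 12.4%, overlapped. The most candidates near 1 gene were the 9 at dnc, the cyclic AMP phosphodiesterase gene dunce, none above a signal of 34.9. Tlk, the Tousled-like kinase gene, had 8 with a highest signal of 109.8, and Moe, the moesin gene, had 7 with a highest of 44.9.

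The listed genes were described by counts alone, to be read beside the shares over all genes. These were 41.9% with a candidate and 7.74% with an IDR summit on the X, and 52.4% and 11.7% on the autosomes. Summits as far as 1000 bp from a start were counted. Those given below for RpL35, ras, fs(1)h, Raf and l(1)sc lay 986, 850, 818, 777 and 765 bp from a start of the gene. That for RpL37-1 lay 436 bp away. Several listed genes share a region with a divergent neighbour. For RpS14a, mRpS14, otu, hop, usp, Appl, norpA, cm and Polr2A, named below, the start nearest to the summit is that of another gene. The regions given below for Raf, CycD, g, Rpt6, Rab9D and Rab18 overlapped no candidate in replicate 1. Those for Sxl, nej, l(1)sc, Rab40 and Rab3-GEF overlapped none in replicate 3. Of 12 X genes of oxidative phosphorylation 9 had a candidate and 5 an IDR summit, against 46 and 18 of 72 autosomal genes. All 5 are complex I subunits at divergent promoters, namely ND-B18 given above, ND-24 at 155.0, ND-ASHI at 137.9, ND-75 at 116.7 and ND-18 at 116.3. Most of the list is complex I as well, since of its 12 X genes only ATPsyndelta, UQCR-14 and COX6B are not. In replicate 1 ND-24, ND-ASHI, ND-75 and ND-18 had 82.5, 77.0, 73.6 and 67.8, and in replicate 3 they had 72.9, 53.2, 51.8 and 53.4. Each of these 5 regions is also within 1000 bp of a start of a neighbour, such as Fum1 beside ND-ASHI, so it cannot be assigned to a single gene. NdufA3, a further complex I gene that this list misses by its symbol, had an IDR summit at 63.1.

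Of 11 X genes for mitochondrial ribosomal proteins 9 had a candidate and 3 an IDR summit, against 52 and 34 of 62 on the autosomes. The 3 were mRpL14 at 123.7, mRpS14 at 112.0 and mRpL33 at 70.5, and the next was mRpL22 at 37.0. The gene tko, above, is outside this list only by its symbol. Of 14 X genes for cytosolic ribosomal proteins 10 had a candidate and 1 an IDR summit, RpL37-1 at 122.0, followed by RpS14b at 48.4, RpS14a at 36.1 and RpL35 at 29.8. On the autosomes 56 of 78 had a candidate and 12 an IDR summit.

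Of 14 X genes with a Rab symbol 6 had a candidate and 0 an IDR summit, against 16 and 8 of 22 autosomal genes. The X list includes Rab9D, Rab9Db, Rab9E, Rab9Fa and Rab9Fb, of which only Rab9D had a candidate, and the X and autosomal lists are not matched gene for gene. The highest X signals were Rab40 at 27.0, Rab9D at 25.9, Rab3-GEF at 25.3 and Rab18 at 21.9, of which Rab3-GEF is an exchange factor listed only by its symbol. Of 6 X proteasome genes 3 had a candidate, none above the 20.1 of Rpt6, and 0 an IDR summit, against 23 and 2 of 42 on the autosomes. Of 3 X genes for tRNA synthetases 0 had a candidate, against 26 of 30 on the autosomes with 16 in the IDR list. The X gene alpha-PheRS, whose symbol has another form, shares a divergent IDR member at 117.0 with CG2129.

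The genes that count and compensate the X are few, and their counts can be read only beside the 41.9% of all X genes with a candidate and the 7.74% with an IDR summit. Of 9 X genes of sex determination and the X signal 2 had a candidate, Sxl, the switch gene of female development, at 44.4 and otu at 39.7, and 0 an IDR summit. Sxl had 27.8 in replicate 1 and no candidate there in replicate 3. The X gene mof of the MSL complex had no candidate, while 3 of 5 autosomal dosage compensation genes had one and 1 an IDR summit. Of the 4 proneural genes of the achaete-scute complex only l(1)sc had a candidate, at 24.1.

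The remaining lists hold X genes alone and are too short to be set apart from the same 7.74%. Of 9 X genes of signalling 7 had a candidate and 0 an IDR summit, with sgg, the fly GSK-3 kinase, at 51.3, Raf at 38.5, the JAK kinase hop at 36.9 and the Notch receptor N at 27.7. Of 2 ecdysone factors only usp, the RXR relative, had a candidate, at 28.7. Of 8 nervous system genes 6 had a candidate and 2 an IDR summit, with Appl, the amyloid precursor relative, at 120.2, norpA at 70.5, elav at 50.7 and the dynamin gene shi at 33.3. The norpA region is the one counted for mRpL33. The summit of the Appl region is 608 bp from Appl and 44 bp from a start of CG4293.

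Of 8 genes of the cell cycle, DNA repair and growth 5 had a candidate and 2 an IDR summit. These were fzr, an activator of the anaphase-promoting complex, at 109.2 and Top1 at 94.1, followed by Myc at 32.7 and CycD at 21.5. Of 9 AP-3, HOPS and pigment genes 4 had a candidate and 2 an IDR summit, with cm, an AP-3 subunit gene, at 130.6 in a region shared with sloth1 and sloth2, and car, the Vps33 subunit of HOPS, at 94.8. The next were ras at 26.9 and g at 23.2. All 4 chromatin and transcription genes had a candidate and 1 an IDR summit. Polr2A, the largest subunit of RNA polymerase II, had 62.8, in a region whose summit is 278 bp from it and 17 bp from CG11699. The BET protein gene fs(1)h had 59.0, Trf2 56.4 and the acetyltransferase gene nej 32.5.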

How the data were processed

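The authors deposited narrowPeak lists in the dm6 and dm3 builds: a candidate list for each replicate, one for the pooled replicates, and an optimal IDR list. The signal values are the authors' own, and the deposited summit offset, another column, placed each summit. For the aligner, the peak caller, the IDR threshold and the role of the control, details were not given in the sources used here. No list holds read counts, so depth is unknown.

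Starts came from Ensembl release 115 (13968 protein-coding genes), and sequence from the RefSeq Release 6 assembly. A promoter was divergent when a minus-strand start lay left of a plus-strand start of another gene, both within 1000 bp of the summit. A replicate's value at a pooled region was its strongest candidate overlapping at least 50% of the shorter interval. Intervals are Wilson for shares, Newcombe for differences, the log method for ratios of shares and order statistics for medians, all at 95%. Those of signal ratios take the error of the X value alone, with the autosomal value held fixed, so they are too narrow. Calculations used SciPy 1.17.1, pandas 2.3.3, NumPy 2.4.6 and Python 3.11.15, and were tested on simulated data.

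The regions and the 15 gene lists were chosen with earlier results of these data known. Named regions are the 12 strongest IDR members, the 2 on each side of the threshold, the 3 genes with most candidates, up to 4 genes per list and the 3 IDR members leaning most to each replicate. The symbol os matched no gene. The alternatives were other promoter windows and starts, merged regions, arms or the crp locus left out, single replicate lists, and splits by promoter type and CAGCTG. The medians of IDR members, the 95th percentiles, the share of genes with a candidate and the motifs other than CAGCTG were added after the data were seen.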

Additional observations from a re-analysis of the deposited data

Results flagged for a closer look

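The report covers promoters, and 11 IDR peaks on the X lay farther than 1000 bp from any protein-coding start, a signal in regions that its comparisons do not use. The strongest were in introns, at Ubr3 with 122.3 in the pooled list, 45.8 in replicate 1 and 75.6 in replicate 3, and at CG15343 with 112.8, 45.2 and 79.5. A further peak at Tlk had 105.7. Of the 11 only those nearest to Appl, inc and CG16989 had CAGCTG within 50 bp of the summit.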

How the results depend on the processing

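The IDR share stayed lower on the X in the 15 alternatives run, but not in the split by distance, where summits beyond 200 bp differed by 0.237 points. The difference was -5.18 points at a 250 bp window, -4.40 at 500 bp, -6.44 in divergent promoters and -14.8 with CAGCTG, and its interval included 0 in 4 alternatives, namely the 5′-most start of each gene, the list of replicate 1 alone, one-strand promoters and members without CAGCTG. The ratio of median signals was below 1 in all 14 alternatives, at 0.920 for 250 bp, 0.839 in divergent promoters, 0.813 among IDR members and 0.929 from mean log2 signal, and its interval included 1 for the 5′-most start and within either promoter type. The ratio among IDR members was 0.721 with CAGCTG and 0.910 without, and that of 95th percentiles 0.555 with and 0.871 without. The interval without CAGCTG included 1 for both. The difference in genes with an IDR peak ran from -5.19 to -3.50 points over 8 alternatives, and that in genes with a candidate was -5.80 at 250 bp and -7.29 at 500 bp. The divergent share differed by -2.81 points at 500 bp, and the CAGCTG share by -3.81 among IDR members. The cause of these shifts was not tested. Leaving out a replicate gave -2.85 to -1.65 points for the IDR share, 0.957 to 0.962 for the ratio of medians, -0.432 to -0.242 for the divergent share, 0.394 to 0.707 for the CAGCTG share, -4.51 to -4.03 for genes with an IDR peak, 0.779 to 0.813 for the IDR ratio, 0.676 to 0.693 for the 95th percentile and -11.3 to -10.7 for genes with a candidate. No paired analysis was possible because there is a single group. Lists without read counts do not give the depth behind a signal, and the floor of each list hides weaker binding.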

Other observations

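In the dm3 lists, without regard to promoters, the IDR list held 121 of 1583 X candidates (7.64%, 6.43 to 9.06%). It held 974 of 11935 autosomal ones (8.16%, 7.68 to 8.67%), and these intervals overlap. The median IDR signal was 94.4 on the X and 115.3 on the autosomes, a ratio of 0.819. The same count in dm6 was 126 of 3410 (3.70%, 3.11 to 4.38%) on the X and 996 of 23095 (4.31%, 4.06 to 4.58%) on the autosomes. The medians were 95.1 and 113.4, a ratio of 0.838. The lowest signal of the candidate list was 22.9 in dm3 and 18.4 in dm6, so shares cannot be compared between builds.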
